A study of Mus musculus with 2 samples.

Results

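Mir144, Mir451a, Mir451b, Mir486 and Mir3107 (also named Mir486b) were examined as the microRNA genes of the red-cell locus on chromosome 11 and of the Ank1 locus that red cells and muscle share. They were chosen by gene name, through their Ensembl identifiers in GENCODE M21, and all 5 were found among the 2202 microRNA genes counted. The samples were 2 microRNA sequencing libraries of gastrocnemius, a calf muscle, from females aged 25 days. Their strain, B6CASTF1/J, is a first-generation cross between C57BL/6J and CAST/EiJ mice. They form 1 group, as biological replicates 1 and 2. Per the labels the females carry separate numbers but a single donor identifier, so spreads are between these libraries, whether or not they are between animals. The labels name no second tissue, genotype or treatment, so the members could be compared only with each other and between the libraries.

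A microRNA gene is transcribed as a long precursor from which a short hairpin is cut. One strand of the hairpin stem becomes the mature microRNA, which pairs with messenger RNAs through its seed, bases 2 to 8. Mir144 and Mir451a are transcribed together in developing red cells under the transcription factor GATA1, and miR-451a is among the most abundant microRNAs of circulating red cells. Its hairpin is too short for Dicer and is cut by Argonaute 2 instead. Mir486 lies within Ank1, the gene of the red-cell membrane skeleton protein ankyrin 1, which also makes a small muscle form, and its microRNA is made in red cells as well as in striated muscle. In a muscle sample that holds blood, Mir144 and Mir451a are therefore usually read as red-cell genes, whereas Mir486 can come from either tissue.

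Mature sequences are shown because they decide which reads can be placed at a single locus; capitals mark the seed. RefSeq (build GRCm38.p6) gave 4 of them, for 3 of the 5 members. Mir144 lies at chr11:78073005-78073070 on the forward strand and Mir451a at chr11:78073170-78073241 on the same strand, with 99 bases between them. Mir451b covers the same 72 bases as Mir451a on the reverse strand. None of these hairpins lies within another annotated gene, and the nearest protein-coding gene, Eral1, is 135 bases from Mir451a.
miR-144-5p: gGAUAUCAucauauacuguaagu
miR-144-3p: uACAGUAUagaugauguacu
miR-451a: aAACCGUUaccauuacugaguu
miR-451b: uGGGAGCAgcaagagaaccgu
No microRNA of another gene in the table had any of these seeds. Each mature sequence was found in no GENCODE M21 transcript of another locus, on either strand.

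The hairpins of Mir144 and Mir451a are shown for where the mature sequence, here in capitals, sits in the stem.
Mir144 hairpin: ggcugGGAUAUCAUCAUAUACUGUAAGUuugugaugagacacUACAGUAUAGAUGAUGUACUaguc
Mir451a hairpin: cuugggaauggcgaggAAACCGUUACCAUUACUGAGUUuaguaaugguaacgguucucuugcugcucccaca
In the predicted minimum free energy fold, Mir451a had a terminal loop of 4 bases. Of the 22 bases of miR-451a, 18 lay before that loop and 4 formed it. For Mir144, all 20 bases of miR-144-3p lay after the loop, on the second arm.

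Mir486 lies at chr8:23142555-23142682 on the forward strand, inside an intron of Ank1, 834 bases after the previous annotated exon and 5598 bases before the next. Mir3107 lies opposite it at chr8:23142573-23142662 on the reverse strand. The hairpins of Mir486 and Mir3107 share a stretch of 22 bases on each arm, at bases 33 to 54 and 73 to 94 of Mir486, and share no stretch of 23. A read of 22 bases or fewer from within either stretch therefore matches the Ank1 locus at separate places. Mir451a and Mir451b share no more than 16 bases, fewer than the length of miR-451a, and Mir144 shares no more than 13 bases with any other microRNA gene. Among the 32 pairs of microRNA genes that overlap on opposite strands, Mir486 with Mir3107 was 1 of 2 pairs that share 22 bases or more, and the median over pairs was 10 bases.

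**Figure D1:**
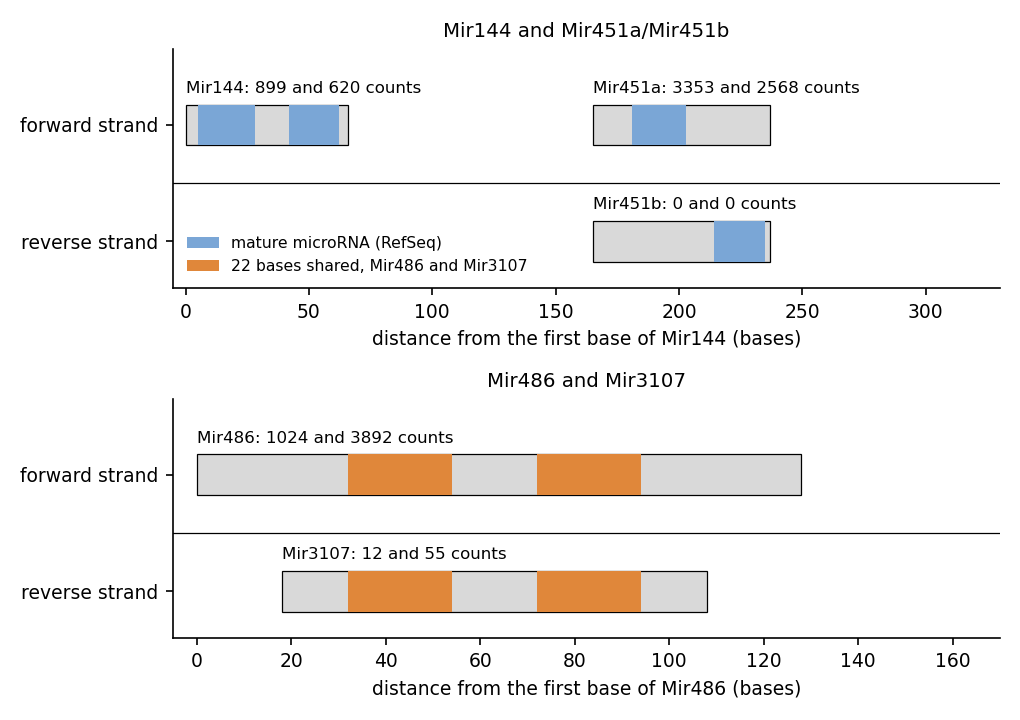
Map of both loci, with distance in bases from the first base of Mir144 (top) and of Mir486 (bottom) on the x axis and the strands on the y axis; grey boxes are hairpins, blue marks mature sequences where RefSeq gave them, orange marks the stretches of 22 bases shared by Mir486 and Mir3107, and the numbers are gene-strand counts in replicates 1 and 2. Mir451a had 3353 and 2568 counts opposite a Mir451b with 0, while both arms of Mir486 carry a shared stretch.

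Reads on the strand of annotated microRNA genes numbered 1573213 in replicate 1 and 5429127 in replicate 2. Levels are CPM, gene-strand counts per 1000000 of that total; a microRNA read spans the mature molecule, so levels were not divided by length. A count of 0 allows up to 3 counts, or 1.91 CPM in replicate 1 and 0.553 CPM in replicate 2. Intervals, limits and tests on counts cover counting error only. Reads aligned to several places were 68.6% and 69.7% of all reads and were given to no gene. The striated muscle list of 10 genes summed to 35743 CPM in replicate 1, against 74298 CPM in replicate 2, and all 10 had counts in both libraries. Mir206, a microRNA of skeletal muscle, alone held 34864 and 72482 CPM of these sums, so their difference was mostly that of 1 gene. The sums hold placed reads only, which lowers genes such as Mir1a-2, whose mature microRNA has a second locus.

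The red-cell genes Mir144 and Mir451a were several-fold higher in replicate 1, while Mir486 was nearly level between the libraries. Together the 5 members held 0.336% of the microRNA-gene counts of replicate 1 (exact 95% interval 0.327 to 0.345) and 0.131% of replicate 2 (0.128 to 0.135). Counting only reads placed at a single site, Mir144 and Mir451a made up 0.270% in replicate 1 and 0.0587% in replicate 2. By the same counts Mir486 and Mir3107 made up 0.0659% and 0.0727%. In whole tissue, more red cells and more of these RNAs per red cell cannot be told apart.

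Mir451a, whose microRNA is needed for red-cell maturation under stress, had 3353 counts or 2131 CPM in replicate 1 (exact 95% interval 2060 to 2205) and 2568 counts or 473 CPM in replicate 2 (455 to 492). By reads placed at a single site, so without those in the stretches Mir486 shares with Mir3107, Mir451a was the most abundant member on average. Its mean was 1302 ± 1173 CPM (SD, n = 2), ranking 63 of 2202 genes. The intervals lie far apart, and the SD is nearly as large as the mean. Its level was 4.51-fold higher in replicate 1 (95% interval 4.28 to 4.75), a log2 ratio of 2.17. In the two-sided exact binomial test its Benjamini-Hochberg adjusted p was too small to be told from 0 in double precision.

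Mir144, the first hairpin of the shared transcript, had 899 counts or 571 CPM in replicate 1 (535 to 610) and 620 counts or 114 CPM in replicate 2 (105 to 124). Its mean was 343 ± 323 CPM (SD, n = 2). It was 5.00-fold higher in replicate 1 (95% interval 4.51 to 5.55), a log2 ratio of 2.32 with an adjusted p of 3.1e-206 in the exact binomial test. No read lay on the opposite strand of Mir144 in either library, which allows a share of up to 0.334% in replicate 1 and 0.484% in replicate 2.

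Mir451b, the gene opposite Mir451a, had no count in either library. Beside the 3353 and 2568 counts of Mir451a, this allows Mir451b up to 0.0895% of the counts of the locus in replicate 1 and 0.117% in replicate 2. No ratio between the libraries can be given for it.

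Mir486, the member made in muscle as well as in red cells, had 1024 counts or 651 CPM in replicate 1 (612 to 692) and 3892 counts or 717 CPM in replicate 2 (695 to 740). Its mean was 684 ± 46.7 CPM (SD, n = 2), and it was lower in replicate 1 by a log2 ratio of -0.14 (95% interval -0.24 to -0.04), 1.10-fold higher in replicate 2. This passed the exact binomial test (adjusted p = 0.0148). The counts hold reads placed at a single site, and reads that lie wholly within the 22 bases shared with Mir3107 cannot be placed at Mir486 alone; how many such reads there were was not tested.

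Mir3107, on the opposite strand, had 12 counts or 7.63 CPM in replicate 1 (3.94 to 13.3) and 55 counts or 10.1 CPM in replicate 2 (7.63 to 13.2). The intervals overlap, and the log2 ratio of -0.36 (95% interval -1.45 to 0.51) did not pass the test (adjusted p = 0.619). Mir3107 held 1.16% of the counts of the Ank1 locus in replicate 1 (0.600 to 2.01) and 1.39% in replicate 2 (1.05 to 1.81). At genes that overlap no other microRNA gene, opposite-strand reads were 0.00477% of the counts in replicate 1 and 0.00192% in replicate 2, or 0.00123% and 0.00131% without Mir203, which held most of them in replicate 1. Of the 22 opposite-strand pairs with at least 100 counts, Mir486 with Mir3107 ranked 2 by the share of the lesser strand, at 1.34% over both libraries. The pair ahead of it, Mir24-1 with Mir3074-1, had 18.1%. Reads wholly within the 22 bases that Mir486 and Mir3107 share enter neither count, so their shares rest on the other reads.

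**Figure D2:**
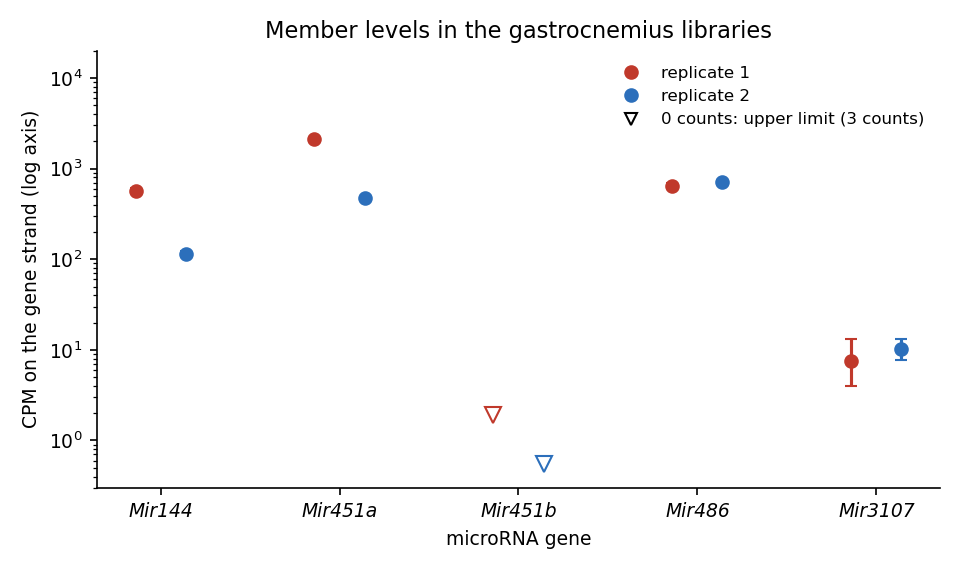
Level of each member in CPM on the gene strand (log axis) in replicate 1 and replicate 2, with exact 95% intervals; open triangles are the upper limits where a library had 0 counts. Mir144 and Mir451a stand apart between the libraries, at 571 and 2131 CPM in replicate 1 against 114 and 473 CPM in replicate 2, while Mir486 lies at 651 and 717 CPM.

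The order of the members depended on the library. In replicate 1 it ran from Mir451a through Mir486 and Mir144 to Mir3107, and in replicate 2 from Mir486 through Mir451a and Mir144 to Mir3107. The means of Mir451a and Mir486 differed by less than the SD of Mir451a between libraries, and those of Mir486 and Mir144 by slightly more than the SD of Mir144. Mir451a had 3.27 counts for each count of Mir486 in replicate 1 (95% interval 3.05 to 3.52) and 0.660 in replicate 2 (0.627 to 0.694). Reads wholly within the 22 bases shared with Mir3107 cannot be placed at Mir486 alone. The order and the ratios therefore cover placed reads only. In replicate 1 Mir451a stood 1658 CPM above its level in replicate 2, and Mir486 stood 66.0 CPM lower than in replicate 2.

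Of the 4 members with a summed count of at least 10, 3 passed the exact binomial test, beside 45.3% of the 364 genes tested (165 genes). In the direction of replicate 1 it was 2 of 4, beside 30.2% of genes. In the direction of replicate 2 it was Mir486 alone, beside 15.1% of genes. The calls over all genes divided into 110 toward replicate 1 and 55 toward replicate 2 by library totals, but into 80 and 94 with DESeq2 size factors. At least 4-fold higher levels in replicate 1 with a call were seen for Mir144 and Mir451a and for 2.75% of genes (10 of 364).

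Set among all tested genes, Mir144 ranked 7 and Mir451a 8 by log2 ratio toward replicate 1, and Mir486 ranked 273. The 6 genes ahead of Mir144 had at most 35 counts in replicate 1, Mir183 having the most. Among the 170 genes with a mean of at least 100 CPM, Mir144 was first and Mir451a second, followed by Mir142 at 1.32, and Mir486 ranked 127. The median log2 ratio of tested genes was 0.15, and the common biological coefficient of variation of 24.6%, estimated with edgeR from the same libraries, gives single genes an SD of 0.50 in log2 ratio. Mir144 lay 4.34 and Mir451a 4.04 such SDs above the median. Mir486 lay 0.575 SD below it, within the spread of a single gene.

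**Figure D3:**
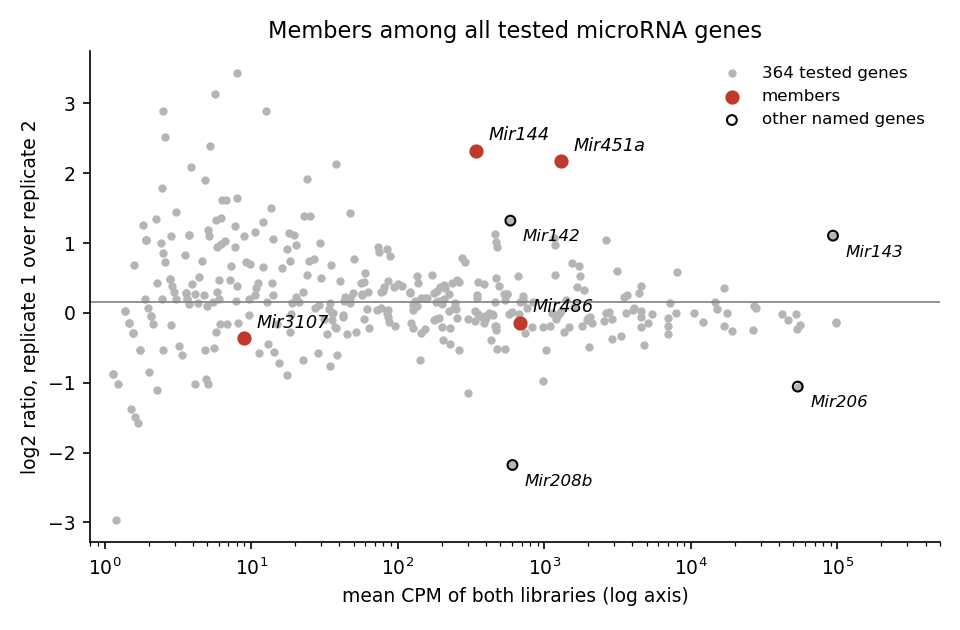
Log2 ratio of replicate 1 over replicate 2 against mean CPM (log axis) for the 364 tested genes, with the 4 tested members in red and other named genes circled; the grey line is the median of 0.15. Mir144 and Mir451a lie above all other genes of at least 100 CPM, and Mir486 lies near the median.

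The contrast between the red-cell genes and Mir486 was tested on their counts directly, which does not depend on scaling. For Mir486 these counts leave out reads that lie wholly within the 22 bases shared with Mir3107, so the contrast covers placed reads only. Over 5 pairs of genes, two-sided Fisher's exact tests were adjusted by Benjamini-Hochberg. The log2 ratio of Mir451a exceeded that of Mir486 by 2.31 (95% interval 2.19 to 2.44), with an adjusted p too small to be told from 0 in double precision. The log2 ratio of Mir144 exceeded that of Mir486 by 2.46 (2.28 to 2.64; Fisher's exact test, adjusted p = 1.44e-167). These differences were 3.26 and 3.47 times the SD of 0.71 that the libraries give for a difference between 2 genes.

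Mir144 and Mir451a themselves were not told apart in their change. Their log2 ratios differed by 0.15, with a 95% interval of -0.02 to 0.32 (Fisher's exact test, adjusted p = 0.0763). Within each library Mir451a had 3.73 counts for each count of Mir144 in replicate 1 (3.46 to 4.02) and 4.14 in replicate 2 (3.79 to 4.53), and these intervals overlap. The locus as a whole differed several-fold between the libraries.

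Mir486 also differed beyond counting error from Mir206, by placed reads the most abundant of the listed muscle genes. The 9 muscle genes tested had log2 ratios from -2.18 to 1.91, with a median of -0.16, beside -0.14 for Mir486. The gene at that median had only 22 and 86 counts (95% interval -0.93 to 0.51), so closeness to the median says little about muscle genes. Mir206 measured 34864 CPM in replicate 1, against 72482 CPM in replicate 2, and the log2 ratio of Mir486 exceeded that of Mir206 by 0.92 (95% interval 0.82 to 1.02; Fisher's exact test, adjusted p = 1.91e-63). This was 1.29 times the SD of a difference between 2 genes. By log2 ratio Mir486 lay between the red-cell genes, higher in replicate 1, and Mir206, higher in replicate 2. Mir451a ranked 8 and Mir206 357 of the 364 genes tested, so most genes lay between them. Mir208b, in an intron of the slow myosin gene Myh7, measured 219 CPM in replicate 1, against 994 CPM in replicate 2. Mir499, within Myh7b, measured 188 and 416 CPM, and Mir1a-2, whose mature microRNA has a second locus, 378 and 318 CPM.

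Genes whose difference between the libraries was most like that of a member were sought among the 170 genes of at least 100 CPM, by the distance between log2 ratios over 2 libraries. The nearest to Mir451a was Mir144, at a distance of 0.15, followed by Mir142 at 0.85 and Mir708 at 1.04. The nearest to Mir144 were Mir451a, Mir142 and Mir708. Among these 170 genes, none outside the locus came closer to either than Mir142. Below 100 CPM, Mir182, at a mean of 37.8 CPM, had a log2 ratio of 2.14, beside 2.17 for Mir451a. Many genes lay close to Mir486, the nearest being Mir379 of the imprinted Dlk1-Dio3 cluster, Mir378a of the Ppargc1b intron and Mir335 of the Mest locus, with log2 ratios of -0.14, -0.13 and -0.13.

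Other microRNAs that red cells hold in quantity, but which many tissues also make, mostly went the same way, and most of those by smaller amounts. Of 13 such genes tested, 10 passed the test as higher in replicate 1, beside 30.2% of all tested genes, 0 passed as higher in replicate 2, and 3 did not pass. With TMM scaling or DESeq2 size factors the count toward replicate 1 was again 10, and 2 genes passed toward replicate 2. Their median log2 ratio was 0.68, beside 0.15 for all tested genes. Their summed level was 11542 CPM in replicate 1, against 9406 CPM in replicate 2. Mir191, the most abundant of them, measured 5445 CPM in replicate 1, against 5511 CPM in replicate 2, and did not pass. Mir93, of the Mir106b cluster, had 2134 and 1336 CPM, Mir106b 1565 and 800 CPM, and Mir16-1, a cell-cycle regulator, 786 and 548 CPM. The 3 genes of the list at least 4-fold higher in replicate 1 were Mir183, Mir96 and Mir182, also epithelial and sensory microRNAs, with 35, 7 and 97 counts there. Their log2 ratios of 2.89, 2.89 and 2.14 matched or exceeded those of Mir144 and Mir451a, at 2.32 and 2.17, apart from Mir182, which lay slightly lower. The 13 genes include copies that share their mature microRNA, such as Mir16-1 and Mir16-2, whose reads cannot all be placed. They also include genes of a single cluster, such as Mir93 and Mir106b, so the 10 calls are not all separate.

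White blood cell genes went both ways. Of 7 listed, 6 were tested, 3 passed as higher in replicate 1 and 2 as higher in replicate 2, beside 30.2% and 15.1% of all tested genes. The split was 2 and 2 with TMM scaling and 2 and 3 with DESeq2 size factors. The median log2 ratio was 0.07, or -0.05 with DESeq2 size factors. Their summed level was 3525 CPM in replicate 1, against 3075 CPM in replicate 2, and Mir146b, with 0 and 1 count, was the only one with a 0 in a library. Mir142, made throughout the blood lineages, measured 839 CPM in replicate 1, against 336 CPM in replicate 2. The log2 ratio of Mir451a exceeded that of Mir142 by 0.85 (95% interval 0.72 to 0.98; Fisher's exact test, adjusted p = 3.95e-40), 1.20 times the SD of a difference between 2 genes. Mir155, of activated immune cells, had 882 and 789 CPM, Mir150, of lymphocytes, 574 and 579 CPM, and Mir146, a feedback regulator of inflammatory signalling, 395 and 563 CPM.

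Vessel wall genes differed among themselves. Mir143 and Mir145a, of smooth muscle and fibroblasts, passed as higher in replicate 1, measuring 127590 and 59272 CPM for Mir143 and 3530 and 1717 CPM for Mir145a. Mir126a, of endothelium, had 93328 and 103367 CPM, a log2 ratio of -0.15 that is close to that of Mir486. Of the 9 striated muscle genes tested, 3 passed as higher in replicate 1 and 4 as higher in replicate 2, beside 30.2% and 15.1% of all tested genes, with a median log2 ratio of -0.16. The split was 2 and 4 with DESeq2 size factors. The part of white blood cell, vessel and muscle content in the differences of the members was not tested.

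**Figure D4:**
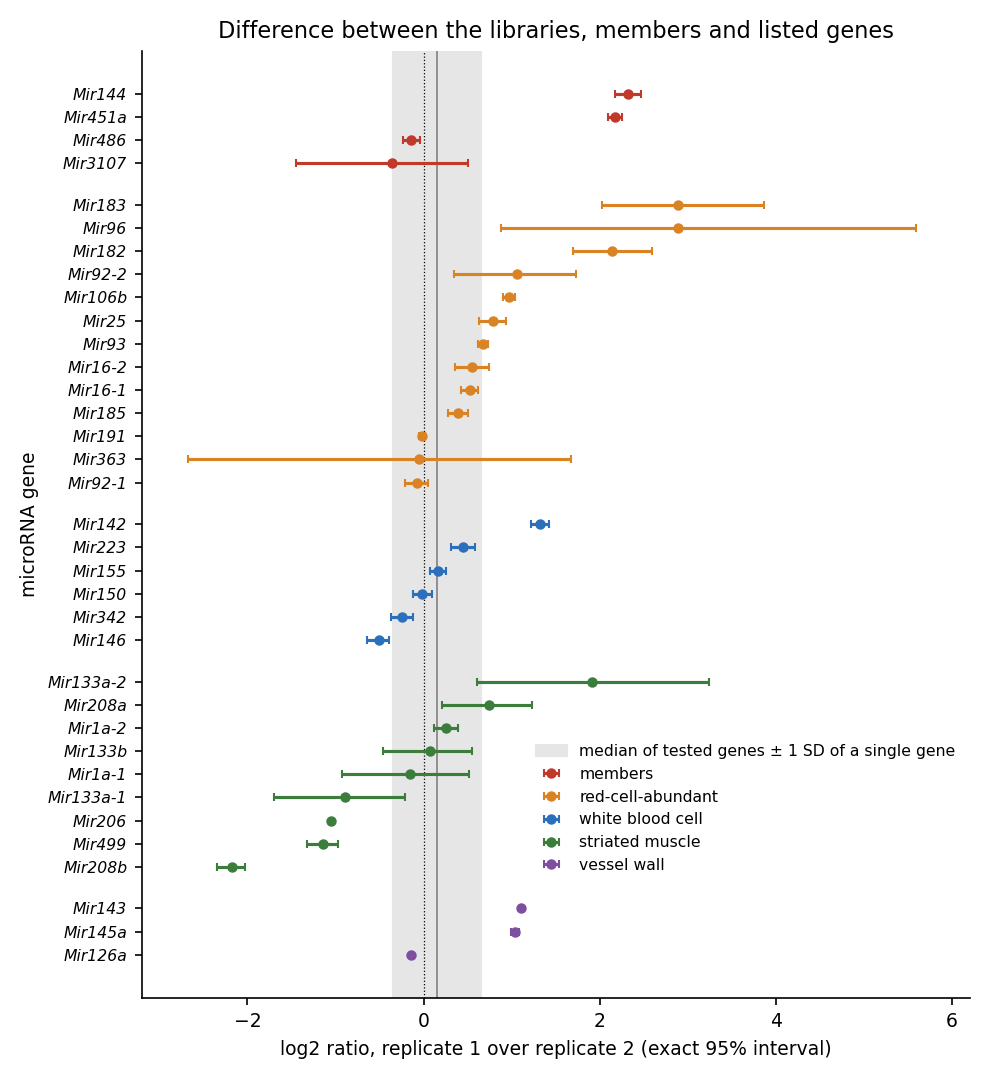
Log2 ratio of replicate 1 over replicate 2 with its exact 95% interval for the tested members and the tested genes of 4 lists, with the grey band marking the median of all tested genes ± 1 SD of a single gene (0.15 ± 0.50). Mir144 and Mir451a, at 2.32 and 2.17, lie beyond the band with narrow intervals, and Mir486 lies inside it.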

How the data were processed

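Small RNA reads of 2 gastrocnemius libraries, from total RNA with a size range below 30 per the labels, were counted by the authors and deposited as raw counts per microRNA gene. Reads were placed on assembly mm10, per the labels, with annotation GENCODE M21, per the deposited readme files; the aligner, counter and filters used are not given in these sources. From the values, the deposited count columns hold either-strand, gene-strand and opposite-strand reads; the gene-strand column was used. Reads aligned to several places, outside genes or unaligned stayed out of totals.

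All 2202 identifiers matched GENCODE M21, and hairpin stretches were compared in its transcripts. CPM, means ± SD, exact (Clopper-Pearson) 95% intervals and log2 ratios with an offset of 0.5 counts were computed. Genes whose counts summed to at least 10 were tested between libraries by exact binomial tests with library totals as odds, adjusted by Benjamini-Hochberg at 0.05, and 5 gene pairs by Fisher's exact tests. These compare 2 libraries, not conditions. On simulated counts with counting error only, the calls of the binomial tests and the odds ratio of the Fisher's tests were checked. The spread came from edgeR 4.0.16; DESeq2 1.42.0 gave alternative size factors. Python 3.11.15, scipy 1.17.1, R 4.3.3 and ViennaRNA 2.7.2 were used.

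The members, the 4 lists of 33 genes and the tests were chosen with earlier results of these data known. Named genes were the members, the pair genes, at most 4 most abundant genes of each list and the 3 genes most like Mir451a, Mir144 and Mir486; Mir183, Mir96, Mir182, Mir146b, Mir203 and the pair Mir24-1 with Mir3074-1 were named after their values were seen. Mir92a-1 and Mir92a-2 are listed in M21 as Mir92-1 and Mir92-2. Alternatives were other scalings, offsets, minimums of counts and CPM, counts on either strand, aligned reads as denominator and each replicate left out.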

Additional observations from a re-analysis of the deposited data

Results flagged for a closer look

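The tally of reads that aligned to several places held 68.6% of the reads of replicate 1 and 69.7% of those of replicate 2, and none of them enters a gene count. It stands out as a signal outside the measurement used, and it does not show how many of these reads came from Mir486, Mir3107 or any other microRNA gene.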

How the results depend on the processing

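Each log2 ratio of Mir144, Mir451a, Mir486 and Mir3107 kept its direction and its side of the threshold under TMM scaling, DESeq2 size factors, another offset and other count minimums. With scaling by all aligned reads, and for Mir486 with the counts of Mir3107 added, both chosen after the data were examined, this also held. The log2 ratio of Mir451a ranged from 2.05 with DESeq2 size factors to 2.17, and that of Mir486 from -0.27 with DESeq2 size factors to -0.14. TMM scaling lowered all ratios by 0.08 and DESeq2 size factors by 0.13, which turned the calls over all genes to 90 higher in replicate 1 and 76 in replicate 2, and to 80 and 94. In the either-strand column Mir451a, Mir486 and Mir3107 were at 0 CPM, because reads where genes overlap were tallied as ambiguous, so no ratio or pair test could be had there. With all aligned reads as denominator the levels above 0 fell, to 304 CPM for Mir451a, 80.0 for Mir144, 161 for Mir486 and 2.10 for Mir3107, with 0.0548% of reads on the members together. Leaving out either replicate gave 473 to 2131 CPM for Mir451a, 114 to 571 for Mir144, 651 to 717 for Mir486, 7.63 to 10.1 for Mir3107, and 0.131 to 0.336% for the members together. Mir451b stayed at 0. No paired analysis was possible because the libraries form 1 group. Depth limits Mir3107, at 12 counts in replicate 1, and Mir451b, whose count of 0 in replicate 1 allows up to 1.91 CPM.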
